A study of Mus musculus with 9 samples.

Results

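The 9 genes described here encode giant and connecting proteins of the sarcomere, the contractile unit of striated muscle: Ttn, Neb, Myom1, Myom2, Myom3, Mybpc1, Mybpc2, Ldb3 and Myot. They were chosen by symbol, with earlier results of these data known. Matched through the GENCODE M21 annotation, they are 9 of the 55536 gene identifiers in the deposited count files. The libraries are bulk RNA sequencing of quadriceps from C57BL/6 mice with volumetric muscle loss, a surgical removal of a piece of the muscle. All carry an age label of 6 weeks. The groups are 5 libraries labelled Il17ra-/-, a knockout of a receptor subunit for interleukin-17 cytokines, and 4 libraries labelled wild type (WT), with no other allele named in either group. The labels disagree for both groups alike: the sample characteristics give saline and a harvest 1 week after surgery, and the extraction protocol gives PCL and a collection 6 weeks after surgery. The series' design text calls the replicates animals, but no label ties a library to an animal, a day or a sequencing run, and the deleted part of Il17ra is not named. If libraries of a group shared an animal, the p-values would measure technical spread in part.

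In a sarcomere, thin filaments of actin are anchored at the Z-disc and thick filaments of myosin are crosslinked at the M-band in the middle. Titin, the product of Ttn, spans from the Z-disc to the M-band and acts as a spring, and nebulin, the product of Neb, runs along the thin filament of skeletal muscle. Myomesins, the products of the Myom genes, crosslink the thick filaments at the M-band, and the myosin-binding C proteins, encoded by Mybpc1 (slow skeletal form) and Mybpc2 (fast skeletal form), bind along the thick filament. Ldb3, also known as ZASP or Cypher, and myotilin, the product of Myot, are Z-disc proteins that bind alpha-actinin.

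Promoter sequence is shown for 4 of the genes: Myom3, which had the largest fold change of the 9, Ttn, the longest, and the slow and fast paralogs Mybpc1 and Mybpc2, whose values between the groups are set side by side below. RefSeq's promoter windows on GRCm38.p6 held 6 of the 9 genes, and Neb, Myom2 and Myot had no entry. The 250 bases before the annotated start are printed 5′ to 3′ on the strand of the gene, and capitals mark matches on either strand to 3 motifs of muscle transcription factors: the MEF2 motif, the CArG box of serum response factor, and MCAT (CATTCC), the motif of TEAD factors. The windows are chr4:135759465-135759714 on the plus strand for Myom3, and, all on the minus strand, chr2:76982548-76982797 for Ttn, chr10:88605153-88605402 for Mybpc1 and chr7:44524670-44524919 for Mybpc2.
Myom3: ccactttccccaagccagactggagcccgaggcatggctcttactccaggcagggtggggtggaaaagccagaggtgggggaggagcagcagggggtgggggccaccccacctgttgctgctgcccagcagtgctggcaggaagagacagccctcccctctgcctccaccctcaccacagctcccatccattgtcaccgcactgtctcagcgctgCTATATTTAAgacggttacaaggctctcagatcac
Ttn: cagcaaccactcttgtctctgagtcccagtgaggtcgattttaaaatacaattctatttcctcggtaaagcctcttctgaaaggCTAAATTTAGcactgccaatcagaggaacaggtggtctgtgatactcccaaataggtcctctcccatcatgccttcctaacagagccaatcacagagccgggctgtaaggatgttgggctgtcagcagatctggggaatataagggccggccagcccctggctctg
Mybpc1: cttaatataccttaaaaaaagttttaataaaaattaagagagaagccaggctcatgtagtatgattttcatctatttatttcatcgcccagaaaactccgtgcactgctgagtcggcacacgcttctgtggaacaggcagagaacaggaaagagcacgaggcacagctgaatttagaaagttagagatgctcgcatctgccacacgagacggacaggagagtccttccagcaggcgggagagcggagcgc
Mybpc2: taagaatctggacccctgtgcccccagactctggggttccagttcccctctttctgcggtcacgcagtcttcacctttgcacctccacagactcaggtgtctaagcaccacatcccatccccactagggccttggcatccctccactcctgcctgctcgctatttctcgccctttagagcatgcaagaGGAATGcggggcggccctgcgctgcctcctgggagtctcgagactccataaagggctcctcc
The MEF2 motif starts 35 bases before the start of Myom3 and 166 bases before that of Ttn, and the MCAT match lies 62 bases before the start of Mybpc2. None of the 3 motifs is in the Mybpc1 window. Of the 2 genes not printed, Myom1 and Ldb3 each hold a CArG box. Among all 32851 windows of this length in the table, 2.92% hold a MEF2 motif, 1.47% a CArG box and 12.6% an MCAT match. An E-box (CANNTG), the motif of MyoD-type factors, is in the windows of 5 of the 6 genes and in 66.2% of all windows. No marked motif overlaps another. These matches describe the letters in the windows only.

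Total counts per library ran from 31.3 to 46.4 M (mega) counts. Values are given as CPM, counts per M (mega) counts of the library, scaled with TMM factors, and 3 counts equal 0.0646 to 0.0959 CPM depending on the library. Il17ra, the targeted gene, stood at 208 ± 43.2 CPM (SD, n = 5) in libraries labelled Il17ra-/- and at 96.8 ± 19.7 CPM (SD, n = 4) in those labelled WT. Its level goes against a loss of the transcript in libraries labelled Il17ra-/-, and every direction below follows the labels as given. WT replicate 2 stood apart on the first principal component at -66.2, against -7.67 to 27.5 in the other 8 libraries. It also had the lowest total and the fewest genes with a count, 17256, followed by Il17ra-/- replicate 1 with 18248. The remaining libraries labelled WT had 20229 to 20945. Tests of genes are two-sided quasi-likelihood tests of edgeR on counts over all 9 libraries with Benjamini-Hochberg adjustment over 16039 tested genes, and a gene was called at an adjusted p under 0.05. Log2 fold changes are Il17ra-/- minus WT and carry their standard error (SE). Il17ra itself was called higher (1.11, SE 0.17, edgeR adjusted p = 0.00208), and the call held under all 18 alternatives. Its lowest library labelled Il17ra-/- (181 CPM) lay above its highest labelled WT (119 CPM).

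All 9 genes had enough counts to be tested, all 9 had a positive log2 fold change (49.7% of all tested genes had), and 6 were called higher in libraries labelled Il17ra-/-: Myom1, Myom2, Myom3, Mybpc1, Ldb3 and Myot. Ttn, Neb and Mybpc2 did not pass. Their median log2 fold change was 1.14, against 0.00 over all tested genes, and 1.35% of all tested genes were called higher and 1.71% lower. In 7 of the 9, every library labelled Il17ra-/- lay above every library labelled WT, which was so for 4.63% of all tested genes. Since the 9 genes were chosen with earlier results of these data known, these shares are a description and not a test. The number called rested on single libraries: it was 8 without WT replicate 1 and 2 or 3 when any other of the libraries was left out. Myom3 was called in each of these 9 fits. Without both WT replicate 2 and Il17ra-/- replicate 1, an alternative added after the data were seen, it was 3. Together the 9 genes took 0.0580% to 0.0729% of the counts in libraries labelled Il17ra-/- and 0.0170% to 0.0483% in those labelled WT. In these bulk samples, a difference in muscle fibre content and a difference in RNA per fibre cannot be told apart.

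**Figure D1:**
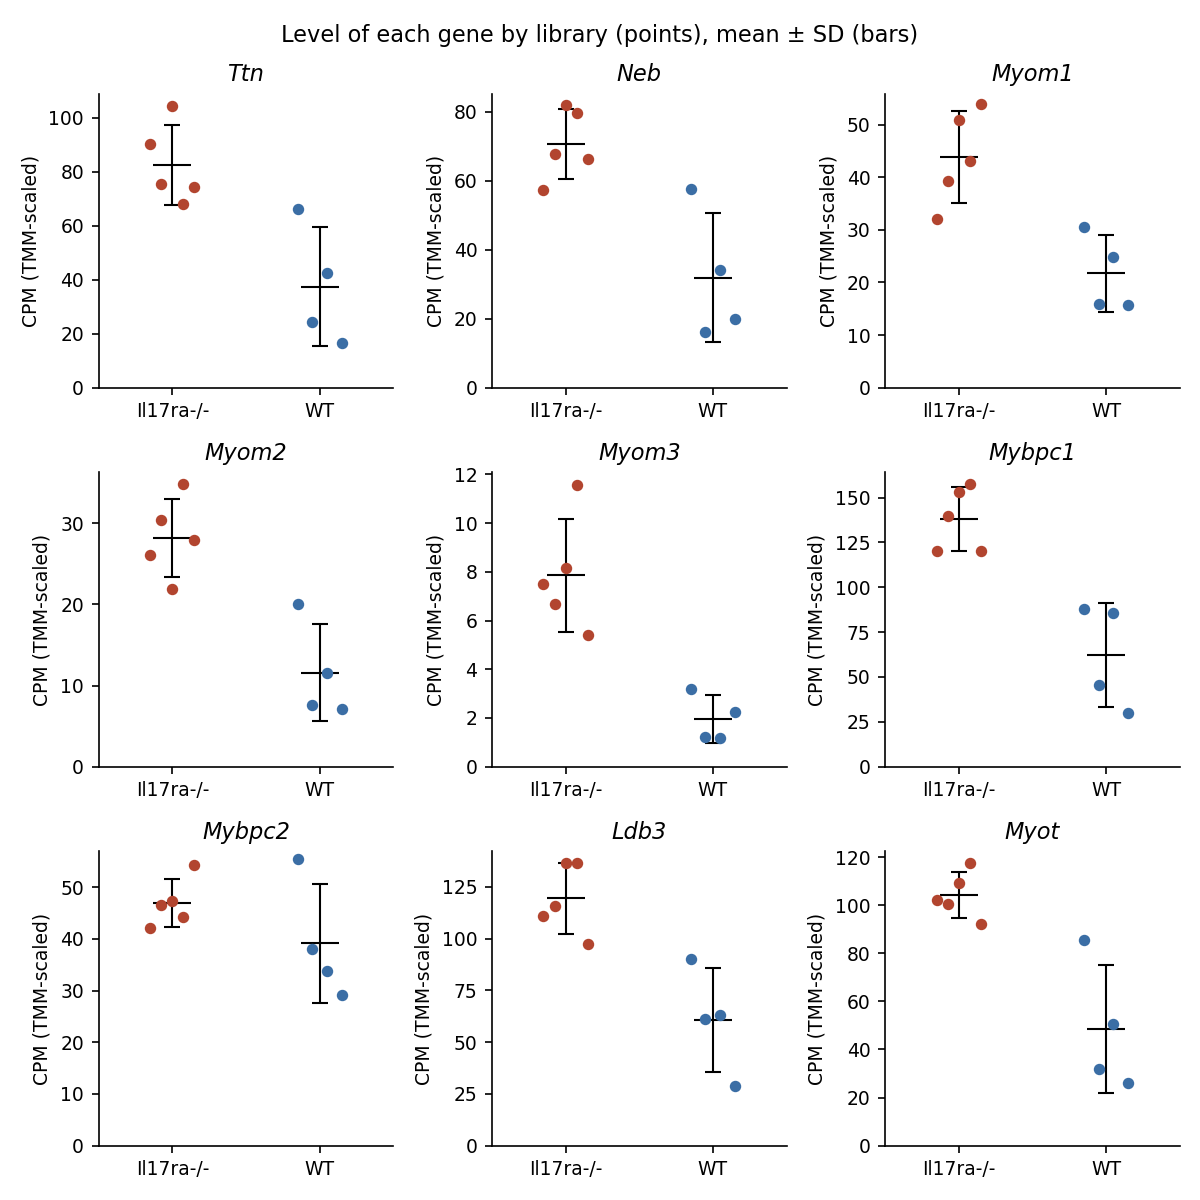
CPM (vertical axes, TMM-scaled, linear from 0) of the 9 genes in 5 libraries labelled Il17ra-/- (left) and 4 labelled WT (right); points are libraries and bars are mean ± SD. The groups do not overlap in 7 of the 9 panels, touch in Neb (57.3 against 57.5 CPM) and overlap in Mybpc2.

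Among the M-band genes, all 3 myomesins rose in libraries labelled Il17ra-/-. Myom3, a myomesin of slow and intermediate fibres, had the largest fold change of the 9 genes and the lowest CPM. Myom3 (ENSMUSG00000037139.15) is a gene of the plus strand at chr4:135759715-135815564 on GRCm38, with 37 merged exons, and the exon sum was counted, as for all 9 genes. It stood at 7.50, 6.66, 8.17, 11.6 and 5.40 CPM in Il17ra-/- replicates 1 to 5, against 3.21, 1.21, 1.17 and 2.24 CPM in WT replicates 1 to 4. The lowest library labelled Il17ra-/- was above the highest labelled WT, and between 37 and 426 counts stood behind each value. Its log2 fold change was 2.00 (SE 0.35, edgeR adjusted p = 0.00567), and it was called under all 18 alternatives, with an adjusted p of 0.0204 at most.

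Myom1, which encodes myomesin 1, the form found in all striated muscle, is at chr17:71002633-71126856 (plus strand). It had 32.1, 39.3, 50.8, 43.1 and 53.9 CPM in Il17ra-/- replicates 1 to 5, against 30.6, 15.8, 24.8 and 15.7 CPM in WT replicates 1 to 4. The groups did not overlap, but Il17ra-/- replicate 1 and WT replicate 1 lay close together. On the log2 scale Myom1 was higher by 1.01 (SE 0.21, edgeR adjusted p = 0.0195). The adjusted p was 0.0583 without WT replicate 4, 0.0593 without Il17ra-/- replicate 3 and 0.0515 without Il17ra-/- replicate 5, within a range of 2.87e-04 to 0.0596 over the alternatives. Of the exon bases of Myom1, 1.98% overlap exons of Myl12a on the other strand, and counting without strand cannot separate the genes there.

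Myom2, the myomesin form of fast fibres and adult heart, is at chr8:15057653-15133541 (plus strand). It had 26.0, 30.4, 21.9, 34.8 and 27.9 CPM in Il17ra-/- replicates 1 to 5, against 20.1, 7.61, 11.6 and 7.12 CPM in WT replicates 1 to 4. The groups did not overlap, with Il17ra-/- replicate 3 nearest to WT replicate 1. Myom2 had a log2 fold change of 1.28 (SE 0.27, edgeR adjusted p = 0.0195). The adjusted p was 0.0561 without WT replicate 3, 0.0526 without WT replicate 4, 0.0505 without Il17ra-/- replicate 2 and 0.0596 without Il17ra-/- replicate 4, within a range of 1.81e-04 to 0.0596.

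**Figure D2:**
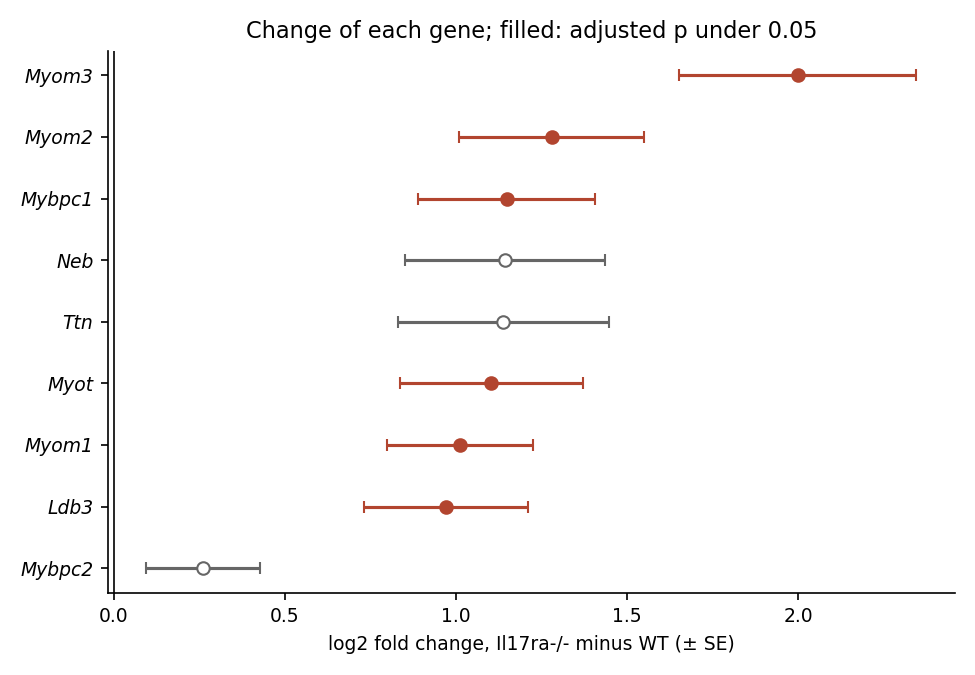
Log2 fold change (horizontal axis, Il17ra-/- minus WT, ± SE) of the 9 genes, from the edgeR fit over 5 libraries labelled Il17ra-/- and 4 labelled WT. Filled points passed an adjusted p of 0.05; Myom3 lies farthest to the right at 2.00 and Mybpc2 nearest to 0 at 0.26.

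Of the myosin-binding C proteins, the slow form was called higher and the fast form was not. Mybpc1 is at chr10:88518279-88605152 (minus strand). It stood at 120.4, 139, 153, 158 and 120.02 CPM in Il17ra-/- replicates 1 to 5, against 87.9, 45.7, 85.7 and 30.0 CPM in WT replicates 1 to 4. Every library labelled Il17ra-/- lay above every library labelled WT. For Mybpc1 the log2 fold change was 1.15 (SE 0.26, edgeR adjusted p = 0.0282). The adjusted p was 0.0522 without WT replicate 2, 0.0528 without Il17ra-/- replicate 1, 0.0634 without Il17ra-/- replicate 2, 0.0730 without Il17ra-/- replicate 3 and 0.0773 without Il17ra-/- replicate 4, and it spanned 2.47e-04 to 0.0773 over the alternatives.

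Mybpc2 is at chr7:44501699-44524656 (minus strand). It had 42.1, 46.6, 47.3, 44.3 and 54.3 CPM in Il17ra-/- replicates 1 to 5, against 55.5, 38.1, 33.8 and 29.2 CPM in WT replicates 1 to 4. WT replicate 1 was the highest of all 9 libraries, and the groups overlapped. For Mybpc2 it was 0.26 (SE 0.17, edgeR adjusted p = 0.467), and no alternative called it (adjusted p 0.0854 to 0.691). Of the exon bases of Mybpc1 and Mybpc2, 5.57% and 5.32% overlap exons of gene models named by number on the other strand, which held 9 and 12 counts in all 9 libraries together.

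The giant filament genes Ttn and Neb had fold changes close to those of the called genes but a wider spread among the libraries labelled WT, and neither passed. Ttn is at chr2:76703980-76982547 (minus strand), with 116825 annotated exon bases. It stood at 90.2, 75.7, 104.6, 68.1 and 74.3 CPM in Il17ra-/- replicates 1 to 5, against 66.3, 24.3, 42.6 and 16.7 CPM in WT replicates 1 to 4. The groups did not overlap, though WT replicate 1 came close to Il17ra-/- replicate 4. The log2 fold change was 1.14 (SE 0.31, edgeR adjusted p = 0.0669). The highest library labelled Il17ra-/- had 1.54 times the lowest, while the highest labelled WT had 3.97 times the lowest.

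Neb, also on the minus strand at chr2:52136647-52378474, has 26582 annotated exon bases. It had 57.3, 67.7, 81.8, 79.4 and 66.4 CPM in Il17ra-/- replicates 1 to 5, against 57.5, 16.3, 34.0 and 19.8 CPM in WT replicates 1 to 4. WT replicate 1 lay just above Il17ra-/- replicate 1, so the groups overlapped at that point only. The log2 fold change was 1.14 (SE 0.29, edgeR adjusted p = 0.0527). Without WT replicate 1, both genes were called, Ttn at 1.57 (adjusted p = 0.00587, within 0.00587 to 0.170 over the alternatives) and Neb at 1.60 (adjusted p = 0.00209, within 0.00209 to 0.126).

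Both Z-disc genes rose in libraries labelled Il17ra-/-, with calls that rested on most of the libraries. Ldb3 is at chr14:34526603-34588682 (minus strand). It had 111, 116, 136.7, 136.4 and 97.3 CPM in Il17ra-/- replicates 1 to 5, against 90.3, 61.0, 63.2 and 29.0 CPM in WT replicates 1 to 4. The groups did not overlap, with Il17ra-/- replicate 5 next to WT replicate 1. Ldb3 had a log2 fold change of 0.97 (SE 0.24, edgeR adjusted p = 0.0449). Of the fits that leave out 1 library, those without WT replicate 1 or WT replicate 4 kept the call, and the other 7 lost it, with adjusted p-values of 0.0617 and 0.0988 without WT replicates 2 and 3 and of 0.0820, 0.0891, 0.112, 0.114 and 0.0564 without Il17ra-/- replicates 1 to 5.

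Myot is at chr18:44334074-44355724 (plus strand). It had 102, 100.4, 109, 118 and 92.3 CPM in Il17ra-/- replicates 1 to 5, against 85.4, 31.8, 50.5 and 26.3 CPM in WT replicates 1 to 4. The 5 libraries labelled Il17ra-/- lay in a narrow band above those labelled WT, of which replicate 1 was by far the highest. The log2 fold change was 1.10 (SE 0.27, edgeR adjusted p = 0.0406). The call was kept without WT replicate 1 and lost in the other 8 fits that leave out 1 library, with adjusted p-values of 0.0668, 0.0927 and 0.0774 without WT replicates 2 to 4 and of 0.0840, 0.0810, 0.0948, 0.104 and 0.0660 without Il17ra-/- replicates 1 to 5.

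In libraries labelled Il17ra-/- the highest value was spread over replicate 4 (4 genes), replicate 3 (3 genes) and replicate 5 (2 genes). The libraries labelled WT ranked in a similar way from gene to gene. WT replicate 1 was the highest of its group in all 9 genes and WT replicate 4 the lowest in 7, with WT replicate 2 lowest in Neb and WT replicate 3 lowest in Myom3. The coefficient of variation was smaller in libraries labelled Il17ra-/- than in those labelled WT for every one of the 9 genes, from 9.10% against 55.1% in Myot to 29.4% against 49.4% in Myom3; this difference in spread was not tested. After the group means were subtracted, the log2(CPM + 1) of 2 genes had a median Pearson r of 0.72 over the 36 pairs and 9 libraries, from 0.18 between Myom3 and Myom1 to 0.94 between Neb and Myot. Myom3 had the lowest mean r with the other genes, 0.32, and Myot the highest, 0.81. All genes were read from the same libraries, so differences in depth and tissue makeup between libraries can enter every r. Libraries labelled WT, with the wider spread and a similar ranking from gene to gene, weigh more in these r values. The tested genes outside the 9 with the highest mean r to them on this measure were Phkg2 (0.82), Pde4dip (0.81), Mlip (0.80), Kcna7 (0.80) and Rpl3l (0.80). None of these 5 was called.

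Per kilobase of exon, which allows levels to be compared between genes, Myot was the highest of the 9 and Ttn the lowest in both groups. In libraries labelled Il17ra-/-, Myot averaged 47.2 ± 4.30 CPM per kilobase (SD, n = 5), followed by Mybpc1 (30.5 ± 3.91), Ldb3 (19.6 ± 2.79) and Mybpc2 (13.0 ± 1.28), and none of these 4 overlapped its neighbour. Below them came Myom1 (4.19 ± 0.84), Myom2 (3.19 ± 0.55) and Neb (2.65 ± 0.38), each overlapping the next, and then Myom3 (1.30 ± 0.38) and Ttn (0.71 ± 0.13), which overlapped each other. In libraries labelled WT the order was Myot (22.0 ± 12.1 CPM per kilobase, SD, n = 4), Mybpc1 (13.8 ± 6.40), Mybpc2 (10.8 ± 3.18) and Ldb3 (9.98 ± 4.11), with each overlapping the next. They were followed by Myom1 (2.08 ± 0.70), Myom2 (1.31 ± 0.68), Neb (1.20 ± 0.70), Myom3 (0.32 ± 0.16) and Ttn (0.32 ± 0.19). Among these 5, Myom2 overlapped Myom1 and Neb, and Myom3 overlapped Ttn. Mybpc2 thus ranked below Ldb3 in libraries labelled Il17ra-/- and just above it, with overlap, in those labelled WT. Exon length here is the union over all annotated transcripts of a gene, which lowers the value of genes with many unused exons.

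Ratios of 2 genes within a library do not depend on how libraries are scaled. They were compared between the groups with two-sided exact permutation tests of all ways to assign 5 and 4 labels, and the p-values were adjusted over the 6 ratios. The smallest exact p is 0.00794, and 1 ratio alone can reach an adjusted p of 0.0476. The log2 ratio of slow Mybpc1 to fast Mybpc2 was 1.52, 1.58, 1.70, 1.83 and 1.14 in Il17ra-/- replicates 1 to 5, against 0.66, 0.26, 1.34 and 0.04 in WT replicates 1 to 4. It was 0.98 higher in libraries labelled Il17ra-/-, but WT replicate 3 lay above Il17ra-/- replicate 5, and after adjustment it did not pass (exact p = 0.0159, adjusted p = 0.0952). The log2 ratio of Myom3 to Myom1 averaged -2.50 ± 0.55 (SD, n = 5) in libraries labelled Il17ra-/- and -3.53 ± 0.67 (SD, n = 4) in those labelled WT (exact permutation p = 0.0476, adjusted p = 0.143). Myom3 to Myom2 averaged -1.87 ± 0.40 in libraries labelled Il17ra-/- and -2.56 ± 0.67 in those labelled WT (exact permutation p = 0.0952, adjusted p = 0.190). The remaining ratios differed less: by -0.35 for Myom1 to Myom2 (adjusted p = 0.286), -0.18 for Ldb3 to Myot (adjusted p = 0.486) and 0.01 for Ttn to Neb (adjusted p = 0.968). No ratio passed, so a difference in change between any of these pairs was not shown.

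**Figure D3:**
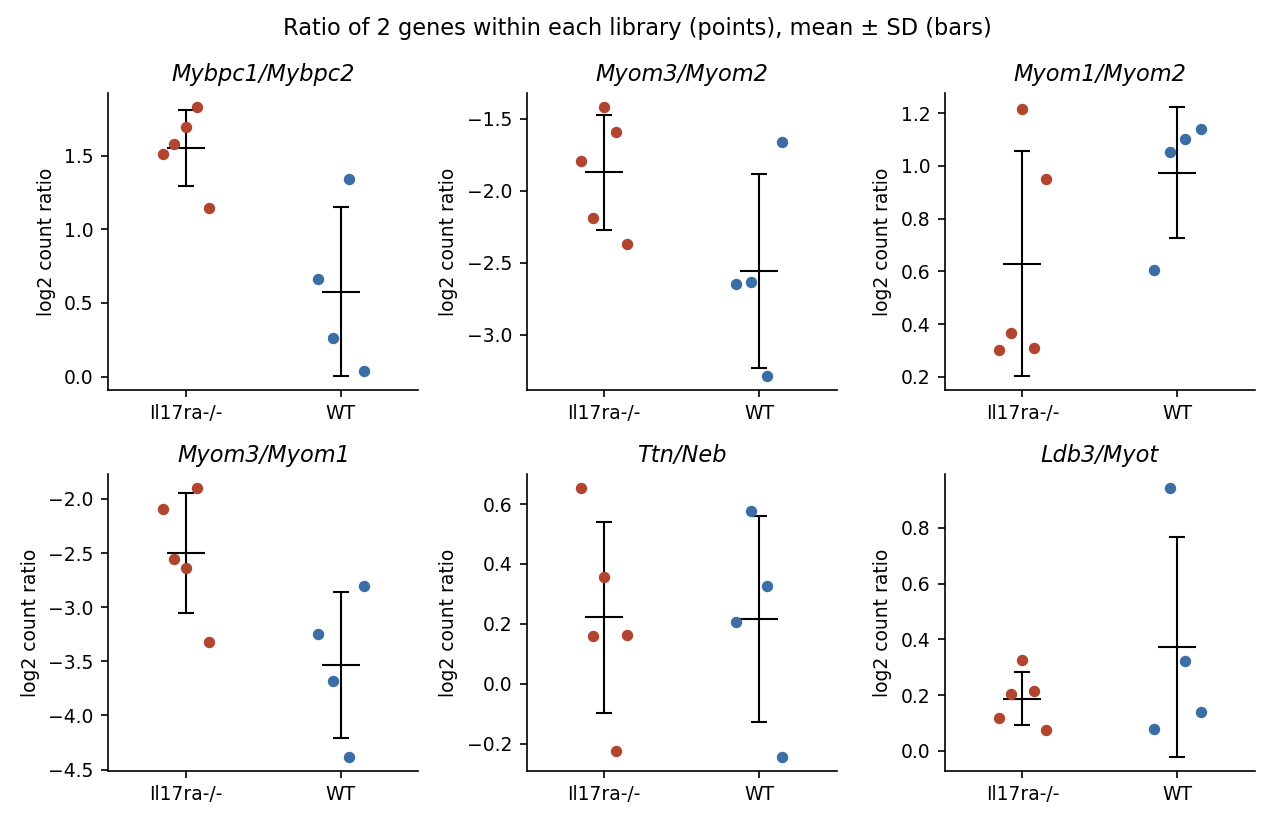
Log2 count ratio (vertical axes) of 6 gene pairs in each library labelled Il17ra-/- (left, 5 points) and WT (right, 4 points), with mean ± SD. The Mybpc1 to Mybpc2 ratio averages 1.55 in libraries labelled Il17ra-/- and 0.58 in those labelled WT, and the groups overlap in all 6 panels.

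Of 2 abundant muscle fibre genes outside the 9, Acta1 was called higher and Ckm was not. Among the 18 alternatives, DESeq2 alone called Ckm higher (0.63, DESeq2 adjusted p = 0.0423). Acta1, the skeletal muscle actin, stood at 1427, 1590.4, 1886, 1831 and 1481 CPM in Il17ra-/- replicates 1 to 5, against 1146, 928, 909 and 439 CPM in WT replicates 1 to 4. Its log2 fold change passed (0.94, SE 0.21, edgeR adjusted p = 0.0289), and its call was lost in 5 of the 9 fits that leave out 1 library, with adjusted p-values of 0.0641 without WT replicate 3 and of 0.0509, 0.0624, 0.0803 and 0.0784 without Il17ra-/- replicates 1 to 4. Ckm, the muscle creatine kinase, averaged 441 ± 66.5 CPM (SD, n = 5) in libraries labelled Il17ra-/- and 285 ± 99.4 CPM (SD, n = 4) in those labelled WT (0.63, SE 0.21, edgeR adjusted p = 0.150). Relative to Acta1 within libraries, none of the 9 genes passed a two-sided exact permutation test adjusted over the 9, where 1 gene alone could reach 0.0714. Relative to Acta1, Myom3 had a log2 difference of 1.06 (exact permutation p = 0.0476, adjusted p = 0.214). Mybpc2 was 0.72 lower relative to Acta1, with a log2 ratio of -5.13 ± 0.24 (SD, n = 5) in libraries labelled Il17ra-/- and -4.41 ± 0.37 (SD, n = 4) in those labelled WT. The groups did not overlap for this ratio (exact permutation p = 0.0159, adjusted p = 0.143). The other 7 genes differed from Acta1 by 0.03 to 0.38.

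Relative to Ckm in place of Acta1, 6 of the 9 genes passed: Myom3 by 1.38, Myom2 by 0.70, Neb by 0.61, Mybpc1 by 0.58, Myot by 0.56 and Ldb3 by 0.37 on the log2 scale. Their adjusted p-values in the exact permutation test lay between 0.0357 and 0.0476. Ttn (0.62, adjusted p = 0.0804) and Myom1 (0.35, adjusted p = 0.183) did not pass, nor did Mybpc2, which was lower relative to Ckm too (-0.40, adjusted p = 0.0804). The calls thus differed with the fibre gene used as base. Ckm was named after its values were seen, and its log2 fold change was smaller than that of Acta1 (0.63 against 0.94). The change of base moved all 9 genes up by the same amount, so these passes depend on that choice.

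**Figure D4:**
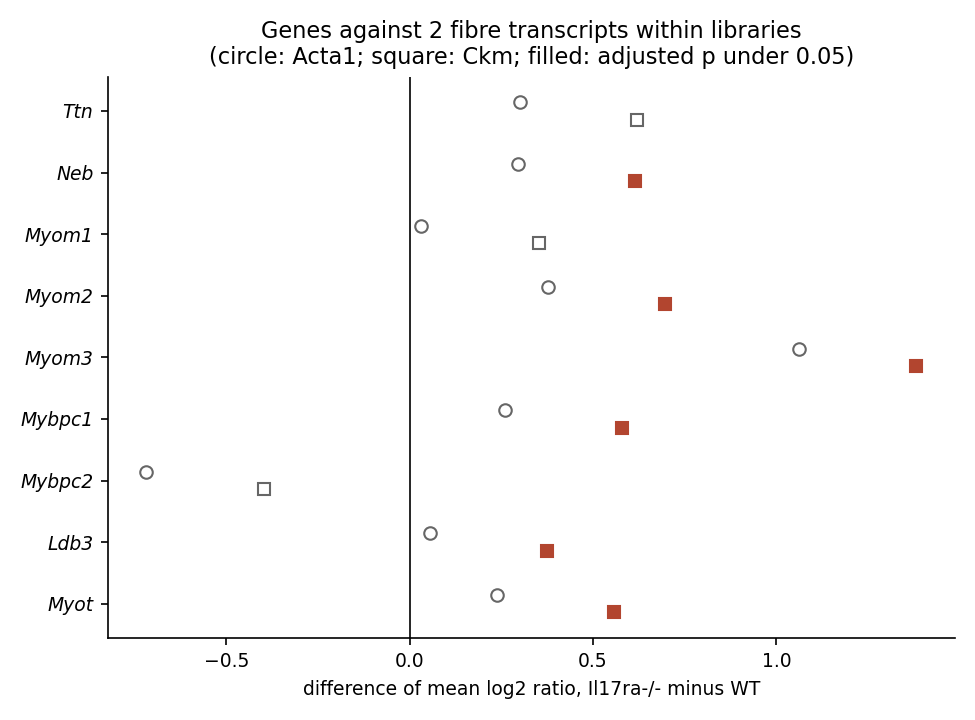
Difference between the groups in the mean log2 ratio of each gene to Acta1 (circles) or Ckm (squares) within libraries (horizontal axis, 5 libraries labelled Il17ra-/- minus 4 labelled WT); filled symbols passed an adjusted p of 0.05. All 9 squares lie to the right of their circles, Myom3 has the largest difference (1.06 and 1.38) and Mybpc2 is the only gene below 0 (-0.72 and -0.40).

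The defining markers of skeletal muscle were present in every library. The 12 fibre markers summed to 3159.9 to 4357 CPM in libraries labelled Il17ra-/- and to 1236 to 3048 CPM in those labelled WT. Of the 12, 5 were called higher. The list was led by Acta1, which did not overlap between the groups, and Tnnt3, which did. Tnnt3 had 395 CPM in Il17ra-/- replicate 1 and 456 CPM in WT replicate 1. Ckm overlapped too (345 against 390 CPM in the same libraries), so the separation of the sums does not hold for each marker. The lowest sum in libraries labelled Il17ra-/-, 3159.9 CPM in replicate 1, held 1427 CPM of Acta1. The highest in those labelled WT, 3048 CPM in replicate 1, held 1146 CPM of Acta1. The gap between these sums is smaller than the gap in Acta1, so the separation of the sums rested on Acta1. Of 9 markers of satellite cells and regenerating fibres, 8 had enough counts to be tested and 2 were called higher. The 9 summed to 128 to 177 CPM in libraries labelled Il17ra-/- against 63.4 to 94.9 CPM in those labelled WT. The smooth muscle and pericyte list held 5 calls of 10, all higher, with sums of 1803 to 2496 CPM in libraries labelled Il17ra-/- against 1086 to 1405 CPM in those labelled WT. The list of fibro-adipogenic progenitors, a connective tissue cell type, was far more abundant than any of these, led by Gsn and Col3a1. Its sums were 71000.3 to 91860.1 CPM in libraries labelled Il17ra-/- against 76059.5 to 86608 CPM in those labelled WT. Of its 8 markers, 1 was called lower and 0 higher. Cardiac markers summed to 1.08 to 3.56 CPM in libraries labelled Il17ra-/- and 1.96 to 3.08 CPM in those labelled WT, with Nppb and the cardiac paralog Mybpc3 at 0 in all 9 libraries. The part of fibre content, satellite cells or smooth muscle in the values of the 9 genes was not tested.

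Sums of the other marker lists given here overlapped between the groups except in leukocytes. Their 8 markers summed to 8.49 to 15.6 CPM in libraries labelled Il17ra-/- against 18.7 to 35.6 CPM in those labelled WT. Of the 8, 5 had enough counts to be tested and 1 was called lower. Ptprc, Cd3e, Cd79a, Adgre1 and S100a8 stayed under 1 CPM in every library. The highest leukocyte marker in libraries labelled WT was Cd68, at 2.58 ± 1.01 CPM (SD, n = 5) in those labelled Il17ra-/- and 17.9 ± 5.20 CPM (SD, n = 4) in those labelled WT. Lyz2, the other leading leukocyte marker, was at 8.26 ± 2.14 CPM in libraries labelled Il17ra-/- and 9.17 ± 1.61 CPM in those labelled WT, and the groups overlapped. Without Cd68, the remaining 7 markers summed to 6.55 to 12.4 CPM in libraries labelled Il17ra-/- and 7.12 to 12.2 CPM in those labelled WT, so the separation of the sums rested on Cd68. Tendon markers, led by Fmod and Comp, summed to 2409.8 to 3684 CPM in libraries labelled Il17ra-/- and 2442 to 3787 CPM in those labelled WT. Endothelial markers, led by Tek and Kdr, summed to 301 to 379 CPM in libraries labelled Il17ra-/- and 261 to 456 CPM in those labelled WT. For adipocytes, led by Fabp4 and Plin1, the sums were 27.6 to 109 CPM in libraries labelled Il17ra-/- and 25.1 to 64.4 CPM in those labelled WT. Of the 5 adipocyte markers, 1 was called higher. For red blood cells, led by Hbb-bs and Hba-a1, they were 81.9 to 145 CPM in libraries labelled Il17ra-/- and 29.1 to 161 CPM in those labelled WT.

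Other sarcomere genes, listed by place together with chaperones that act on sarcomere proteins, mostly had positive fold changes. The 2 called lower, Bag3 and Hsp90aa1, encode a co-chaperone and a chaperone and not structural proteins of the sarcomere. Of 20 Z-disc genes, 7 were called higher and 1 lower, with a median log2 fold change of 0.66. The number called higher was 3 without Il17ra-/- replicate 1, 3 or 4, 4 without WT replicate 4, and 12 with DESeq2. Actn2, the alpha-actinin that crosslinks actin and anchors titin at the Z-disc, stood at 93.7 to 155 CPM in libraries labelled Il17ra-/- and at 18.6 to 56.2 CPM in those labelled WT (1.81, SE 0.28, edgeR adjusted p = 0.00284). Nrap, a nebulin-related anchoring protein of assembling myofibrils (1.63, adjusted p = 0.00473), and Myoz2, a calsarcin of slow fibres (1.52, adjusted p = 0.0111), rose as well. Bag3, a co-chaperone that clears damaged Z-disc proteins, fell to 116 to 134 CPM in libraries labelled Il17ra-/-, against 231 to 318 CPM in those labelled WT (-1.06, SE 0.11, edgeR adjusted p = 2.17e-04).

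Of 15 M-band and titin-associated genes, 4 were called higher and none lower, with a median log2 fold change of 0.90. The number called higher was 7 without WT replicate 1, 2 without WT replicate 2 or 4 or Il17ra-/- replicate 5, 1 without any of Il17ra-/- replicates 1 to 4, and 8 with DESeq2. The genes called higher include Alpk3, an M-band pseudokinase gene (1.34, edgeR adjusted p = 7.54e-04), Ankrd2, which encodes a titin-binding ankyrin repeat protein (1.57, adjusted p = 0.0358), and Cmya5, the myospryn gene (0.90, adjusted p = 0.0395). Leaving out 1 library at a time ended the call of Cmya5 in 7 of 9 fits (without each library except WT replicates 1 and 2), with adjusted p-values up to 0.106. That of Ankrd2 was lost in 5 (WT replicate 2 and Il17ra-/- replicates 1 to 4), with adjusted p-values up to 0.101.

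The thin filament list held 7 calls of 17, all higher, with a median of 0.94, among them the slow troponins Tnnt1 (2.12), Tnnc1 (2.31) and Tnni1 (2.27) and the tropomyosin Tpm2 (0.98), with edgeR adjusted p-values of 6.74e-04 to 0.00951. Without Il17ra-/- replicate 3 or 4 the thin filament calls numbered 4. The thick filament list held 6 calls higher and 1 lower of 15, with a median of 0.66. The slow myosin genes Myh7 (3.07), Myl3 (2.37) and Myl2 (2.12) had the largest fold changes, and Hsp90aa1, the chaperone that acts with Unc45b in myosin folding, fell to 134 to 195 CPM in libraries labelled Il17ra-/-, against 258 to 358 CPM in those labelled WT (-0.94, SE 0.14, edgeR adjusted p = 0.00158). Unc45b, a myosin co-chaperone gene, was called higher (0.66, SE 0.17, edgeR adjusted p = 0.0488), a call lost in 8 of the 9 fits that leave out 1 library (all but the one without WT replicate 3). Beside these lists, 217 of the 16039 tested genes were called higher and 274 lower, and with libraries scaled by their totals alone the share called lower was 41.3% in place of 55.8%. With library totals alone, 11 Z-disc genes were called higher.

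**Figure D5:**
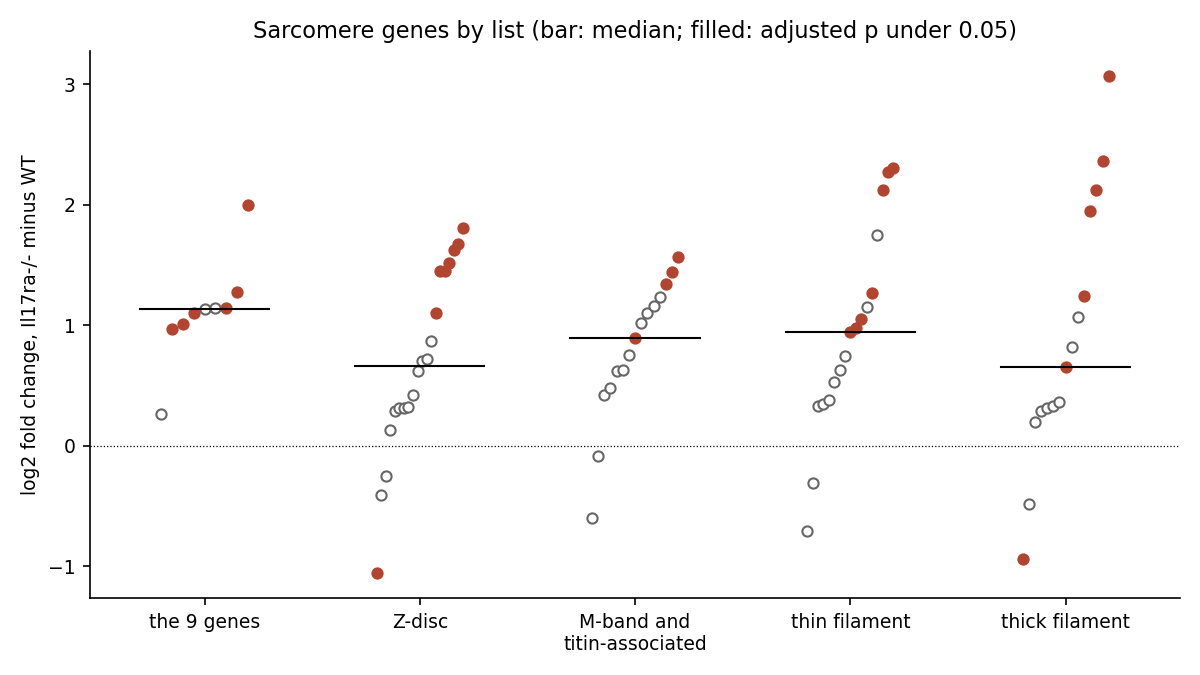
Log2 fold change (vertical axis, Il17ra-/- minus WT) of each gene in the 9 and in 4 lists of other sarcomere genes and chaperones. Bars are medians and filled points passed an adjusted p of 0.05. Medians are 1.14 for the 9 genes, 0.66 for the Z-disc, 0.90 for the M-band and titin-associated list, 0.94 for the thin filament and 0.66 for the thick filament, and the lowest filled points are Bag3 (-1.06) and Hsp90aa1 (-0.94).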

How the data were processed

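Bulk RNA sequencing libraries of mouse quadriceps were analysed, 5 labelled Il17ra-/- and 4 labelled WT. The aligner was STAR, of unstated version, per the submitters' processing notes. Per the file headers, the authors counted read pairs per gene over exons of GENCODE M21 with featureCounts 1.6.0 and no strand setting, and deposited raw counts. The exon length per gene comes from the same deposited files. All 55536 identifiers matched GENCODE M21, whose coordinates are GRCm38 and 1-based.

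Genes passing filterByExpr were scaled with TMM and tested with edgeR 4.0.16 (R 4.3.3), checked on simulated data; SE is the size of the log2 fold change divided by the root of F. Within-library ratios used counts plus 0.5 and exact permutation. Alternatives were other scalings and filters, DESeq2 1.42.0, limma 3.58.1 voom, a replicate block, each library left out, 5 added to counts and Ckm as base.

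The 9 genes and all lists were chosen with earlier results of these data known. Named genes are the 9, Il17ra, Acta1, the 4 genes of each sarcomere list with the smallest p, the 5 most alike and the 2 leading markers per cell type list; Ckm, Unc45b, Nppb, Mybpc3, Cd3e, Cd79a, Adgre1, S100a8 and Ptprc were added after their values were seen. Some genes and lists under this rule are not reported here. At least 37 counts stood behind every value of the 9 genes.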

Additional observations from a re-analysis of the deposited data

Results flagged for a closer look

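Of 48 sets of libraries checked for a sample far from the others of its group (9 levels and 15 ratios in each of 2 groups), 2 held such a sample, and chance alone marks about 1 in 20. The log2 ratio of Myom2 to Acta1 was -6.43 in Il17ra-/- replicate 3, against -5.77 to -5.71 in the other 4 libraries with that label. The log2 ratio of Myom1 to Myom2 was 0.61 in WT replicate 1, against 1.05 to 1.14 in the other 3 libraries labelled WT. No level of the 9 genes in CPM was marked in either group.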

How the results depend on the processing

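Over the alternatives run, every one of the 9 genes kept a positive log2 fold change, and Myom3 (called) and Mybpc2 (not called) kept their side of the threshold. RLE and upper quartile scaling changed no call of the 9 genes. With library totals alone, Ttn (1.20) and Neb (1.21) were called, 330 genes were called higher, and 11 of the Z-disc list. Without a filter Ttn (1.16) and Neb (1.16) were called and 11 Z-disc genes. With a mean of at least 1 CPM, Neb was called (1.14). DESeq2 called 1017 genes, 518 higher and 499 lower, with Neb (1.15), 12 Z-disc and 8 M-band and titin-associated genes. Limma voom called Ttn (1.30) and Neb (1.29).

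Deviations from the group means of libraries sharing a replicate number had r of 0.0344 to 0.0806. Of the 4 libraries labelled WT, 3 correlated best with the library labelled Il17ra-/- of their own number. These values do not settle whether the numbers pair libraries. With a replicate block 363 genes were called, 136 of them higher; Ttn was called (1.35), and Myom1 (0.97), Myom2 (1.39) and Ldb3 (1.13) were not. The block turned the ratio of Myom1 to Acta1 to -0.084. With Ckm as base in place of Acta1, Neb (0.61), Myom2 (0.70), Myom3 (1.38), Mybpc1 (0.58), Ldb3 (0.37) and Myot (0.56) passed.

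Leaving out 1 library in turn gave 275 to 567 called genes, 100 to 268 higher (100 without Il17ra-/- replicate 3) and 175 to 299 lower, and 2 to 8 of the 9 genes. Log2 fold changes ran from 0.90 to 1.57 for Ttn, 0.93 to 1.60 for Neb, 0.89 to 1.23 for Myom1, 1.11 to 1.69 for Myom2, 0.92 to 1.36 for Mybpc1, 0.74 to 1.23 for Ldb3 and 0.90 to 1.53 for Myot. Called higher were 3 to 10 Z-disc genes (1 to 2 lower), 1 to 7 M-band and titin-associated and 4 to 8 thin filament genes. Ratios of small size changed sign: Ttn to Neb ran from -0.15 to 0.13 (-0.15, -0.10 and -0.03 without WT replicate 4 and Il17ra-/- replicates 1 and 3), Ldb3 to Myot from -0.28 to 0.0062 (0.0062 without WT replicate 2), Neb to Acta1 from -0.035 to 0.47 (-0.035 without WT replicate 2) and Myom1 to Acta1 from -0.17 to 0.19 (-0.17 without WT replicate 2, -0.084 without Il17ra-/- replicate 5). With 8 libraries 1 ratio alone cannot pass the adjusted exact test. Without WT replicate 2 and Il17ra-/- replicate 1, chosen after seeing the data, 3 of the 9 genes were called, with Mybpc1 at 1.07, Ldb3 at 1.00 and Myot at 0.96 not passing, and 2 M-band and titin-associated genes. The causes were not tested; fewer libraries enter these fits.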
